A study of Zea mays with 24 samples.

Results

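Cold-grown primary roots of the maize variety PR39B29 were set against control-grown primary roots of the variety Codisco on 3 of the 24 arrays of the series, 1 array in each biological replicate. The 3 arrays were chosen by their titles, which name PR39B29 under treatment first and Codisco under control second, and all 43393 genes with a maize probe were followed on them. PR39B29 was one of the more chilling tolerant varieties and Codisco one of the less tolerant ones, and both are commercial hybrids. Control seedlings were kept for 16 h at 18 °C and for a cooler period at 12 °C (6 h in the sample labels, 8 h in the study's methods). Cold seedlings were kept for 16 h at 12 °C and for 8 h at 6 °C. All seedlings were in the dark, and total RNA came from primary roots, taken 8 days after germination by the labels and on day 1 by the methods. In each replicate the 4 varieties (Fergus, Picker, PR39B29 and Codisco) formed a loop of 8 arrays. A direct array holds cold and control RNA of 1 variety, and a linking array, such as the one described here, holds cold RNA of one variety and control RNA of the next. The linking ratio therefore mixes a difference between varieties with a difference between temperatures. The 3 direct arrays of PR39B29 and the 3 of Codisco, each from the same replicates, were used to take them apart.

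Maize is of tropical origin, and its seedlings are injured by chilling, the damage done by low temperatures above freezing. Chilled roots take up water poorly, so genes of water deficit and of the hormone abscisic acid are often among those that respond. Reactive oxygen, handled by peroxidases among others, cell wall and lignin enzymes, and proteases that recycle or remove protein are further parts of the known response of plants to chilling. Roots hold plastids without chlorophyll, which carry the same small genome as chloroplasts.

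The values are M-values, log2 ratios between the channels of an array, so that 1 unit is a doubling. Genes are given by the probe ID of the array, since the files pair few probes with a product. The probe sequences were not used here. For 9 of the genes the study designed PCR primers, and all pairs are shown because they are the sequences that tie a probe ID to a transcript. All are 20 bases long and are written 5′ to 3′, with no base set apart in capitals.
RNA binding protein MZ00003507, forward: ttcggatcctgtcttccatc
RNA binding protein MZ00003507, reverse: actccacgaaagcatcaagg
PR-1 MZ00004486, forward: gagcaacgtgattggacaga
PR-1 MZ00004486, reverse: gcatatgcggggagaacata
hypothetical protein MZ00022876, forward: ggaaggtgtgttctgcgttt
hypothetical protein MZ00022876, reverse: tatgaagctgactggcgttg
unknown protein MZ00041708, forward: ttgctgctcttcaccttcct
unknown protein MZ00041708, reverse: acaacaatggcttccctgaa
drought-inducible protein MZ00023411, forward: gcaccacgagaagaagaagg
drought-inducible protein MZ00023411, reverse: cacaagcaagcagctaccaa
maize peroxidase MZ00026737, forward: agaaggccatggtcaagatg
maize peroxidase MZ00026737, reverse: gcttgcaggtcatgaacaaa
hsp22 MZ00029223, forward: cgaagatcaaggacgaggag
hsp22 MZ00029223, reverse: acgactgctctgcaacagaa
lipid transfer protein MZ00026029, forward: gctacatcaacagccccaac
lipid transfer protein MZ00026029, reverse: tacacgacaacacgacacga
pZSS2 MZ00037140, forward: aagtaaggccacgcgtttta
pZSS2 MZ00037140, reverse: cctggactacgagacggtgt

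The linking arrays of replicates 1, 2 and 3 held a value for 23321, 22938 and 34464 genes, and 17171 genes had a value on all 3. Over the 24 arrays the number lay between 18268 and 43108. The SD of the M-values was 1.42, 1.54 and 1.82 on the 3 linking arrays, and 37, 24 and 46 of their gene spots lay beyond 16 in size, a ratio that a scanner can hardly resolve. The 3 arrays did not rank the genes alike. Across all genes with values on both, Spearman's rho was −0.03 between replicates 1 and 2, 0.40 between 1 and 3, and 0.27 between 2 and 3. The direct array of PR39B29 in replicate 2 held nearly the same values as the array of Picker cold against PR39B29 control in that replicate (Pearson r = 0.987 over 22672 genes), so the counts of calls that rest on it are also given without replicate 2. The direct arrays of PR39B29 in replicates 1 and 2 and of Codisco in replicate 1 also resembled each other closely (rho of 0.82, 0.73 and 0.70).

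The direction of the linking ratio is not settled. By the array titles and by the dye labels, which put the cold RNA in Cy5, a positive M-value means more RNA in cold PR39B29 roots than in Codisco control roots. In title order the 8 ratios of a loop sum to 0 apart from error, so the other 7 arrays of the loop give a value of the linking ratio that its own array did not enter. Over 2863, 2918 and 2610 of the more variable genes, the M-value and that value had rho of 0.39, 0.52 and 0.69 in replicates 1, 2 and 3. With the direct arrays read by their own dye labels rho was −0.62, −0.56 and −0.53. The sign of rho was thus positive in title order and negative by the dye labels in all 3 replicates. The same closure is obtained when every array is read in the reverse of its title.

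**Figure D1:**
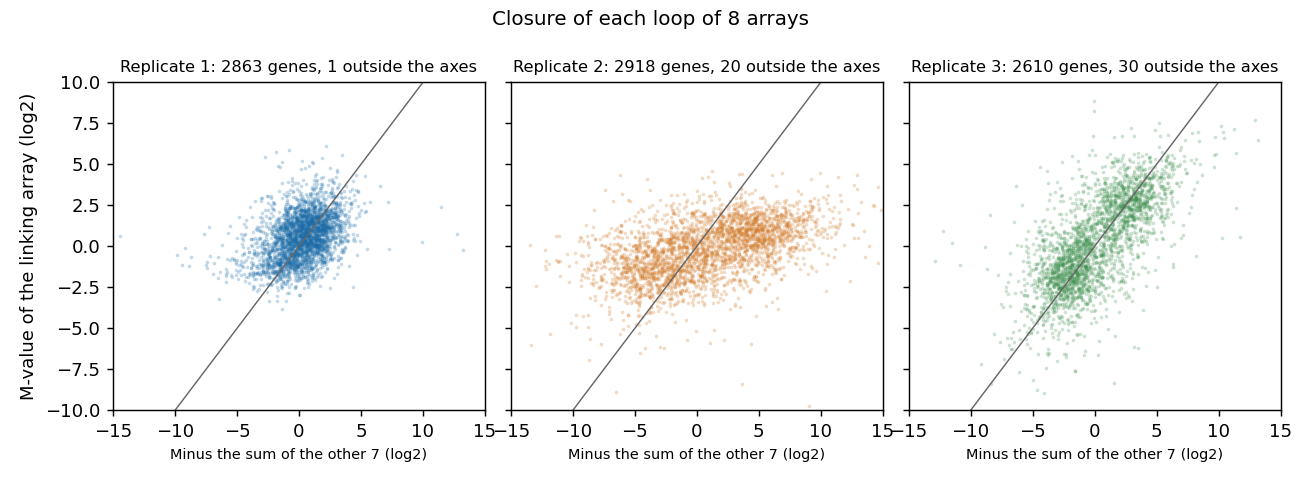
Each point is 1 of the more variable genes, with minus the sum of the other 7 M-values of its loop on the x axis and the M-value of the PR39B29 cold against Codisco control array on the y axis (both log2), and the line marks equality. The clouds rise in all 3 replicates, with Spearman's rho of 0.39, 0.52 and 0.69.

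The missing values may bear on that choice. The study's background method gives intensities at or below 0 a small positive value, and bad spots were left out. Of the blank spots, which carry no probe, 0.659%, 1.22% and 7.71% had a value on the PR39B29 direct arrays. On the Codisco direct arrays the share was 0.406%, 25.5% and 99.8%. Whether a missing value marks a spot without RNA was not tested. Genes with values on all 3 direct arrays of PR39B29 and on neither Codisco direct array of replicates 1 and 2 had median linking M-values of −0.56, −0.68 and −0.84 (65, 51 and 55 genes). Genes with values on both of these Codisco arrays and on no PR39B29 direct array had medians of 0.46, 1.10 and 0.59 (266, 197 and 413 genes). Of the latter, 15.4% to 29.9% per array lay above 2 and 1.88% to 2.66% below −2. Genes measured in Codisco only thus lay on the positive side and genes measured in PR39B29 only on the negative side, which is the opposite of the titles and dye labels. A looser rule, a value on the direct array of 1 variety in the same replicate and none on that of the other, gave medians of −0.24 for PR39B29 and 0.12 for Codisco in replicate 1 and of −0.05 and 0.36 in replicate 2. In replicate 3 the medians were 0.70 for 83 genes of PR39B29 and 0.02 for 13580 genes of Codisco, whose array there had a value for 99.3% of gene spots. The deposited sign was kept throughout. A positive M-value is accordingly higher in cold PR39B29 roots in title order and higher in Codisco control roots if the missing values give the direction. All signs turn together between these readings, so sizes and counts stay and only higher and lower swap. Direct arrays were turned to run the same way as the linking arrays, which makes them cold over control in title order and control over cold in the other reading. Before turning, rho between the linking and PR39B29 direct arrays over all genes was −0.66, 0.28 and −0.52 in replicates 1, 2 and 3. In replicate 2 the turned PR39B29 direct array thus ran against its linking array, although both hold the cold RNA of PR39B29. The cause was not tested. Whether a gene's linking ratio has the sign of its turned direct ratio is the same in both. The study's PR39B29 list, given as treatment minus control, also bears on the direction. Its signs are those of the turned direct means for MZ00023411, MZ00026737, hsp22, MZ00022876 and MZ00041708, which is title order. The RelA homologue MZ00031971, MZ00013139 and MZ00032300 are negative in that list but had turned means of 0.27, 0.24 and 0.07. All other genes of the list, which holds 39, had a turned mean of the list's sign. The list comes from these same arrays, and the paper reports a strong correlation with qRT-PCR of such genes.

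**Figure D2:**
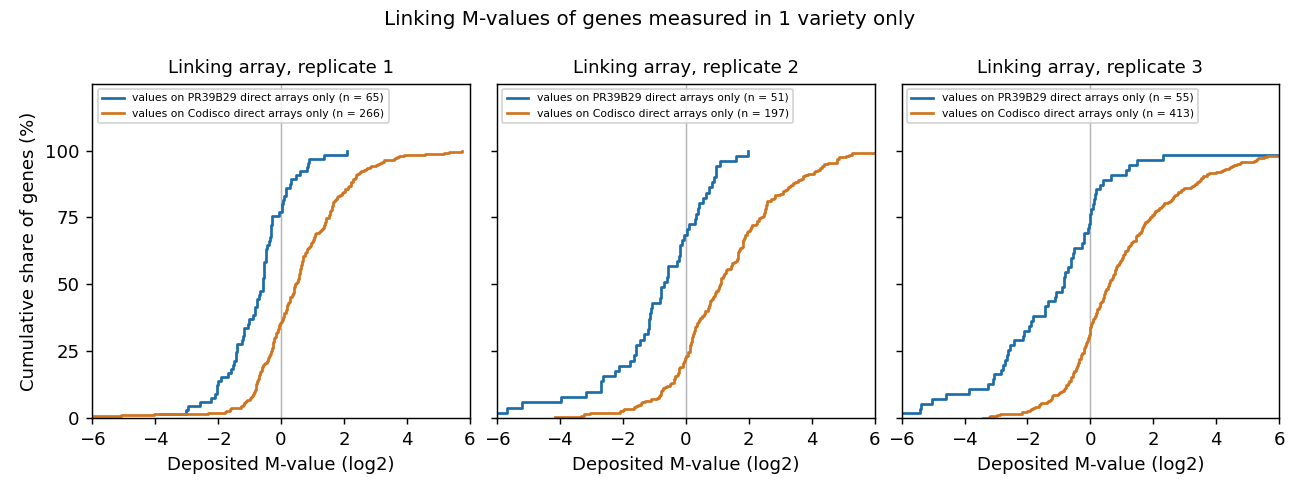
The x axis is the deposited M-value (log2) of a linking array and the y axis the cumulative share of genes (%), for genes with values on the PR39B29 direct arrays only and on the Codisco direct arrays only. In each of the 3 replicates the Codisco curve lies to the right, with medians of 0.46, 1.10 and 0.59 against −0.56, −0.68 and −0.84, and a few genes lie outside the axes.

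The linking ratio itself was tested against 0 with limma's moderated one-sample test in the 4111 genes that were among the 40% most variable and had a value on all 3 arrays. No gene was called at an adjusted p under 0.05 (0% of the genes tested), while 582 had an unadjusted p under 0.05. The smallest adjusted p was 0.130. Signs agreed more often than calls were made, with 1067 genes (26%) above 0 on all 3 arrays and 652 (15.9%) below 0 on all 3. Other fits made calls. With limma's robust variance moderation 84 genes were called (2.04%), 54 above 0 and 30 below 0, and with M-values beyond 16 left out 24 genes. In a single fit of all 24 arrays in title order, in which all RNAs share one estimate of the spread and only 1705 genes have every value, 742 genes (43.5%) were called, 521 above 0 (30.6%) and 221 below 0 (13%). That fit takes the arrays as independent, although each RNA lies on both a direct and a linking array. The effect of this sharing on its adjusted p was not tested. With a dye term in that fit 42.9% were called (30.3% above 0 and 12.6% below 0). A fit of the 12 linking arrays alone called 6.87% of 2037 genes (5.35% above 0 and 1.52% below 0), and 16.2% with the replicate as a block (12.6% and 3.58%). Of the 742 genes, 587 also had the sign of the fit on each of the 3 linking arrays. The same fit to the 16 arrays of replicates 1 and 3 called 838 of 2095 genes (40%), 573 above 0 (27.4%) and 265 below 0 (12.6%). It held 699 of the 742 genes, of which 548 were called there with the same sign.

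Several of the positive ratios with the smallest p belonged to genes with few or no values on the PR39B29 direct arrays. MZ00052473 had M-values of 5.75, 5.18 and 7.01 in replicates 1, 2 and 3. All 3 arrays lay close together, and the mean of 5.98 ± 0.93 (SD, n = 3) had an adjusted p of 0.130 (0.000248 with robust moderation). The gene had no value on any PR39B29 direct array and turned ratios of −0.67, −1.33 and −0.57 on the Codisco direct arrays, all of one sign. In replicates 2 and 3 the Codisco direct arrays also had values on 25.5% and 99.8% of the blank spots, which carry no probe. A value there therefore does not show that the RNA was present at both temperatures. MZ00026632 was alike, with linking M-values of 4.56, 6.09 and 7.95, no PR39B29 direct value, and Codisco direct ratios of 0.31, −0.39 and −0.01. MZ00020282 (3.91, 4.34 and 5.20) and MZ00024283 (3.27, 4.08 and 6.37) also had values on all 3 Codisco direct arrays and none on those of PR39B29. MZ00026735 had linking M-values of 5.34, 4.33 and 5.29 and no PR39B29 direct value. It differed from the preceding genes in having large Codisco direct ratios, 3.64, 3.07 and 4.05 after turning. MZ00027533 (4.03, 5.03 and 6.42) had a single PR39B29 direct value, 0.10 in replicate 2, and Codisco direct ratios of 0.28, 2.32 and 2.29. MZ00037559 was the leading positive gene with values on every direct array. Its linking M-values were 4.88, 3.44 and 7.41, its turned ratios 2.60, 3.42 and 4.79 in PR39B29 and 3.77, 7.34 and 6.04 in Codisco. For this gene the direct arrays of both varieties thus ran in the same direction as the linking arrays.

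Most of the negative ratios with the smallest p had the opposite pattern of missing values. MZ00031461 had M-values of −4.75, −4.50 and −6.50 (mean −5.25 ± 1.09 SD, n = 3, adjusted p = 0.154, 0.0014 with robust moderation). Its turned PR39B29 direct ratios were −0.71, −0.95 and −0.37, and the Codisco direct array of replicate 1 had no value. MZ00024028 had M-values of −3.17, −5.62 and −8.73 against PR39B29 direct ratios of −1.09, −1.49 and −0.36. MZ00005241 (−2.86, −5.55 and −5.42) and MZ00020780 (−3.85, −5.69 and −5.03) also lacked a Codisco value in replicate 1. In these 4 genes the linking ratio was larger in size than the PR39B29 direct ratio wherever both had a value, except that MZ00020780 had a turned direct ratio of −6.16 in replicate 3. MZ00031010, at −2.53, −7.55 and −6.35, had a value on each of these arrays. Its PR39B29 direct ratios were near 0 (−0.27, 1.09 and −0.67) and its Codisco ratios, −2.38, −7.31 and −5.58, nearly equalled the linking ratios in each replicate. Of the 54 positive genes called with robust moderation 12 had no PR39B29 direct value and 2 no Codisco value in replicate 1, and of the 30 negative genes none and 14. Among all genes tested 5.69% lacked every PR39B29 direct value and 16.2% lacked the Codisco value of replicate 1.

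**Figure D3:**
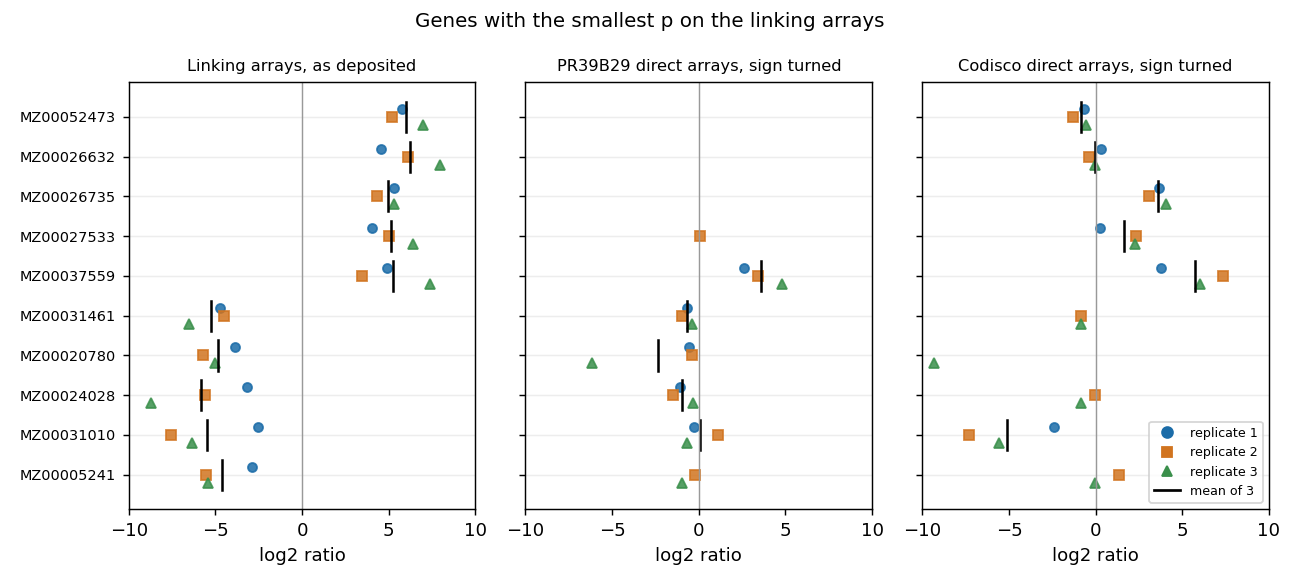
The 5 genes with the smallest p above 0 and the 5 below 0 on the linking arrays are shown by replicate, with the log2 ratio on the x axis as deposited for the linking arrays and turned for the direct arrays of PR39B29 and Codisco; bars mark the mean where all 3 replicates have a value. The linking values lie 3.44 or more above 0 or 2.53 or more below it, and points are absent where an array had no value.

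In the accounts of gene groups that follow, linking M-values and turned PR39B29 direct ratios are given in the order of replicates 1, 2 and 3. The arrays share the cold RNA of PR39B29 in each replicate, so the values stand side by side and are not independent. Over all 17171 genes with a value on the 3 linking arrays, 19.5% lay above 0 on all 3, 16.8% below 0 on all 3, and the median of the mean ratio was 0.02. No member of a list was called in the test of the 3 linking arrays. The lists were drawn from products that the study named in genes it selected on these arrays, so their counts are not independent evidence of a direction. Of 34 genes with a product name and 3 values, 17 were above 0 and 4 below 0 on all 3 arrays, with a median of 2.05.

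All 5 probes of the water stress and abscisic acid list were above 0 on the 3 linking arrays, with a median mean ratio of 3.58. Both probes of r40g3, a member of a protein family first described in rice as responsive to abscisic acid, gave like values. MZ00042908 had M-values of 3.73, 3.10 and 6.66 (mean 4.50 ± 1.90 SD, adjusted p = 0.194), and MZ00042906 had 2.91, 2.91 and 6.99. In PR39B29 itself MZ00042908 had turned direct ratios of 0.66, 2.33 and 6.56, of the same sign as the linking ratios in every replicate but smaller than them in each. In the fit of all 24 arrays its linking ratio was 4.76 ± 0.95 (SE, adjusted p = 0.00141). The water stress inducible protein MZ00041500 had M-values of 2.08, 2.55 and 5.19 beside direct ratios of 1.25, 1.85 and 5.50, so that the ratios were close in replicate 3. The 22 kDa drought-inducible protein MZ00023411 had M-values of 3.03, 0.95 and 6.76 and direct ratios of 0.61, 2.63 and 3.60. ASR2 (MZ00041306), of a family named for abscisic acid, stress and ripening, had 4.01, 0.28 and 4.77 beside 2.56, 3.02 and −0.65. Here the sign of the direct ratio in replicate 3 was opposite to that of the linking ratio. In the fit of 24 arrays 4 of the 5 probes had every value, and all 4 were called above 0, as were 30.6% of all genes in that fit. Without replicate 2 the same 4 and ASR2 were called above 0, beside 27.4% of all genes.

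All 4 proteases were above 0 on the 3 linking arrays and, after turning, on the 3 PR39B29 direct arrays. Metacaspases are plant cysteine peptidases known from work on cell death, and MZ00032919, the probe for one, had linking M-values of 3.18, 2.72 and 8.09 and direct ratios of 1.36, 2.24 and 4.54. The legumain-like protease MZ00041333, of a family of vacuolar proteases, had 2.83, 2.52 and 6.39 beside 1.89, 2.59 and 4.05. The C13 endopeptidase NP1 (MZ00041334), of the same peptidase family, had 3.03, 2.10 and 5.09 beside 1.71, 2.08 and 3.87. In replicate 2 the linking and direct ratios of both genes were nearly equal. The aspartic proteinase MZ00043603 had 1.21, 2.19 and 4.79 beside 1.10, 1.34 and 3.93. It was the only one of the 4 in the fit of 24 arrays, where its ratio was 3.24 ± 0.78 (SE, adjusted p = 0.00421). That fit called 30.6% of all genes above 0. The list's median was 3.66 on the linking arrays and 2.63 on the turned direct arrays, and replicate 3 held the highest value of every member.

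NAC1 (MZ00022590), a transcription factor of the NAC family, had linking M-values of 3.39, 2.38 and 5.09 (mean 3.62 ± 1.37 SD, adjusted p = 0.216) and PR39B29 direct ratios of 1.11, 1.25 and 2.37. All its ratios had one sign, and the linking ratio was the larger in each replicate. Other members of the regulation and RNA list lay far below 0. The putative RNA binding protein MZ00003507 had M-values of −3.59, −3.21 and −5.21 (mean −4.00 ± 1.06 SD, adjusted p = 0.201, 0.0169 with robust moderation). Its direct ratios in PR39B29 were −0.40, −0.71 and 0.09, so these arrays showed little of the linking ratio between the temperatures in that variety. The RelA homologue MZ00031971, related to bacterial enzymes that make the alarmone ppGpp, had M-values of −2.14, −4.84 and −4.44 beside −0.26, −0.41 and 1.49. For both genes the Codisco direct array of replicate 1 had no value. The study lists both as significantly lowered by cold in PR39B29, unlike the direct ratios given here. It also measured the RNA binding protein by qRT-PCR, and reports a strong correlation with its array values over the genes so measured. A 40S ribosomal protein probe (MZ00017067: −0.11, 0.17 and −1.22) and a BRAP2-like protein probe (MZ00049724: 0.72, −0.24 and 0.09) had ratios on both sides of 0. The small nuclear ribonucleoprotein F probe MZ00014087 had values of −0.39 and −1.32 in replicates 1 and 3 only.

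Among the transport proteins ZmNIP2-1 (MZ00016581), a channel of a family that carries silicic acid into roots, had M-values of 1.53, 0.75 and 4.85 beside direct ratios of 1.36, 1.99 and 3.22. The MtN21 probe MZ00029892, of a family of nodulin-like transporters, had −0.98, −1.99 and −2.27 on the linking arrays and 0.02, −0.01 and −0.76 on the direct arrays of PR39B29, but −2.12, −3.77 and −3.73 on those of Codisco. Its linking ratio thus had a counterpart in the Codisco direct ratio and hardly any in that of PR39B29. Both genes were called in the fit of 24 arrays, ZmNIP2-1 above 0 (adjusted p = 0.0089) and MtN21 below 0 (0.0229). That fit called 30.6% of all genes above 0 and 13% below 0. Without replicate 2 MtN21 had an adjusted p of 0.0949. The urea transporter DUR3 (MZ00023132) had M-values of −0.16, 1.47 and 0.51 and was not among the genes tested.

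In the list of phenylpropanoid, tyrosine and isoprenoid enzymes, 3 of the 4 genes had a linking ratio near 0 in replicate 2. Cinnamoyl CoA reductase (MZ00015899), which makes the aldehyde precursors of lignin, had M-values of 3.65, −0.17 and 7.09. The O-methyltransferase ZRP4 (MZ00017851), described as a root-preferential maize gene, had 3.44, 0.06 and 9.04. Arogenate dehydrogenase (MZ00029584), which makes tyrosine, had 1.90, −0.07 and 4.85. On the turned direct arrays of PR39B29 the same genes had replicate 2 values of 3.07, 4.46 and 1.91, above those of replicate 1 (1.75, 2.13 and 0.34). Farnesyl pyrophosphate synthetase (MZ00014008), an isoprenoid enzyme, had 0.47, −2.41 and −7.20 and so differed in sign among replicates. In the fit of 24 arrays cinnamoyl CoA reductase (adjusted p = 0.00269) and arogenate dehydrogenase (0.0247) were called above 0, as were 30.6% of all genes. The other 2 genes lacked values there. With replicate 2 left out, in which both were near 0, cinnamoyl CoA reductase and ZRP4 were still not called by limma on the 2 remaining linking arrays (adjusted p = 0.0501). The fit of the 16 arrays of replicates 1 and 3 called cinnamoyl CoA reductase above 0 (5.08, adjusted p = 0.00158). It also called arogenate dehydrogenase above 0 (2.92, adjusted p = 0.0161), beside 27.4% of all genes, and had no result for ZRP4.

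Defence genes and peroxidases varied among replicates, some of them in sign. PR-1 (MZ00004486), a marker of pathogen defence, had M-values of 0.54, 4.15 and −13.29, so that its mean of −2.87 rested on replicate 3 and was 2.34 without it. The chitinase MZ00027910, an enzyme that cleaves fungal cell walls, had −2.32 and 0.34 in replicates 1 and 2 and no value in replicate 3, while its direct ratios in PR39B29 were −1.89, −1.70 and −1.35. The study names pZSS2 first as a precursor of a protein induced by glucose starvation and then as a defence-related protein. The probes of pZSS2 had 2.54, 2.84 and 0.13 (MZ00037140) and 1.90, 1.98 and 1.64 (MZ00040560). The latter had the smallest SD of the defence list, 0.18, and limma gave it an adjusted p of 0.347. The maize peroxidase MZ00026737 had 4.35, −3.16 and 5.61 on the linking arrays and 3.07, 3.85 and 2.73 on the turned PR39B29 direct arrays. The putative peroxidase MZ00004711 had −1.41, −5.41 and −7.16 on the linking arrays, below 0 on each, and 0.52, 0.13 and −1.76 on the direct arrays. Its linking ratio had an adjusted p of 0.216 (0.00954 with robust moderation). The study's PR39B29 list has this gene as significantly lowered by cold. In the fit of 24 arrays MZ00026737 was not called (2.50 ± 1.13 SE, adjusted p = 0.0743), and MZ00004711 lacked values there. The fit of replicates 1 and 3 leaves out the replicate in which MZ00026737 was negative on the linking array. It called MZ00026737 above 0 (4.72, adjusted p = 0.00382) and MZ00004711 below 0 (−4.27, adjusted p = 0.0198). Of all genes it called 27.4% above 0 and 12.6% below 0. Peroxidase P7X (MZ00026299) had −0.03, −1.54 and 0.52.

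Carbon metabolism and heat shock genes did not hold one sign. Phosphoenolpyruvate carboxykinase (PEPCK, MZ00013532), which starts the making of sugars from organic acids, had M-values of 3.83, 2.69 and −3.89, although its direct ratios in PR39B29 were 2.19, 1.83 and 4.33. Its mean of 0.88 became −0.60 without replicate 1 and −0.03 without replicate 2. The ribulose bisphosphate carboxylase probe MZ00005992 had 0.05, −0.94 and −3.86. The small heat shock protein hsp22 (MZ00029223), a chaperone, had −1.06, 0.53 and −3.61 beside direct ratios of −1.80, −2.29 and −6.10, larger in size than the linking ratio in each replicate. Both probes of unknown function had linking ratios above 0 throughout. MZ00022876 had 2.65, 0.97 and 4.60 beside direct ratios of 1.36, 1.65 and 2.18, and MZ00041708 had 1.88, 2.28 and 4.90 beside 0.81, 0.83 and 2.82. Both were called above 0 in the fit of 24 arrays (adjusted p = 0.0056 and 0.00577), as were 30.6% of all genes in that fit.

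**Figure D4:**
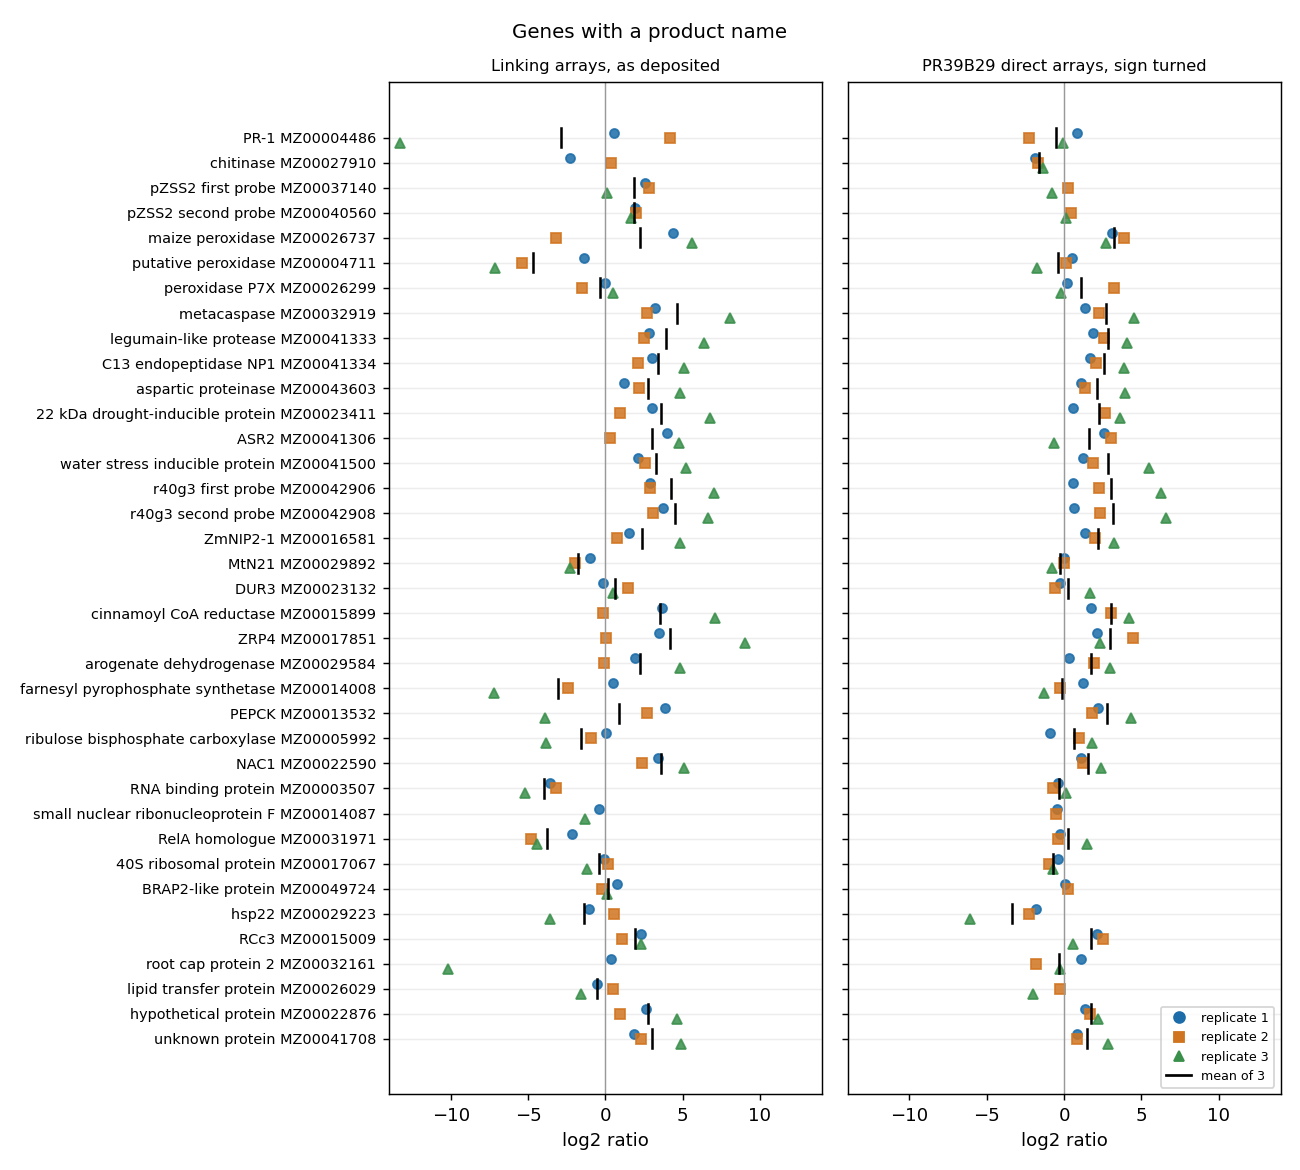
Each of the 37 genes with a product name is shown by replicate, with the log2 ratio on the x axis, as deposited on the linking arrays and turned on the PR39B29 direct arrays; bars mark the mean where all 3 replicates have a value. The proteases and the water stress genes lie above 0 in all 3 replicates of the linking arrays, and the RNA binding protein and the RelA homologue lie below 0 there with direct ratios between −0.71 and 1.49.

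Root genes were used to look at the tissue, although a ratio shows a difference between the RNAs and not the presence of a transcript. RCc3 (MZ00015009), a root-specific gene known from rice, had linking M-values of 2.28, 1.08 and 2.29. ZmNIP2-1 and ZRP4, given above, were also above 0 on all 3 arrays. Root cap protein 2 (MZ00032161) had 0.34 and −10.19 in replicates 1 and 3, and the lipid transfer protein MZ00026029 had −0.55, 0.49 and −1.55. Thus 3 of the 4 root genes with 3 values had one sign, with a median of 2.13, and root cap protein 2 lay far to the other side in replicate 3. The part of a difference in tissue between the RNAs in these ratios was not tested.

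Probes named for plastid genes had more negative than positive ratios. Of 67 probes only 16 had a value on all 3 linking arrays, of which 8 were below 0 on all 3 and 1 above, with a median of −0.99 over the 16. Below 0 throughout were rpl14 (−0.50, −0.72 and −1.27), rpl16 (−0.18, −1.31 and −2.94), rpl2 (−0.95, −2.25 and −2.70) and rps19 (−0.76, −3.05 and −1.18), which encode plastid ribosomal proteins. The photosystem II genes psbA (−0.55, −4.20 and −2.78) and psbM (MZ00034854: −0.80, −0.10 and −2.15), the dehydrogenase gene ndhJ (−1.27, −2.59 and −1.80) and the polymerase gene rpoC2 (−1.31, −1.26 and −1.91) completed the 8. The ribosomal gene rpl22 (−1.76, 0.17 and −1.77) was near 0 in replicate 2 and about equal in the others. The ribosomal gene rps15 was the exception above 0 (0.60, 0.68 and 0.67), with an SD of 0.04. The ribosomal genes rpl36, rps3 and rps7 and the photosystem I genes psaB and psaJ had values on both sides of 0, between −1.54 and 1.25. On the turned PR39B29 direct arrays 8 of the 12 plastid probes with all values were below 0 in each replicate and 1 was above, beside 26.1% and 23.3% of the 16708 genes with all values. There psbA differed, with 0.80, 0.57 and −0.47, while its Codisco ratios of −0.89, −5.30 and −3.63 followed the linking ratios. None of the 11 plastid probes tested on the linking arrays was called. In the fit of 24 arrays rpl22 (adjusted p = 0.0262), psbM (0.043) and rpoC2 (0.0191) were called below 0, of 6 in that fit, in which 43.5% of all genes were called and 13% below 0. Without replicate 2 the adjusted p of rpoC2 was 0.0548. The cytochrome, ATP synthase and Rubisco large subunit probes had no member with 3 values.

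**Figure D5:**
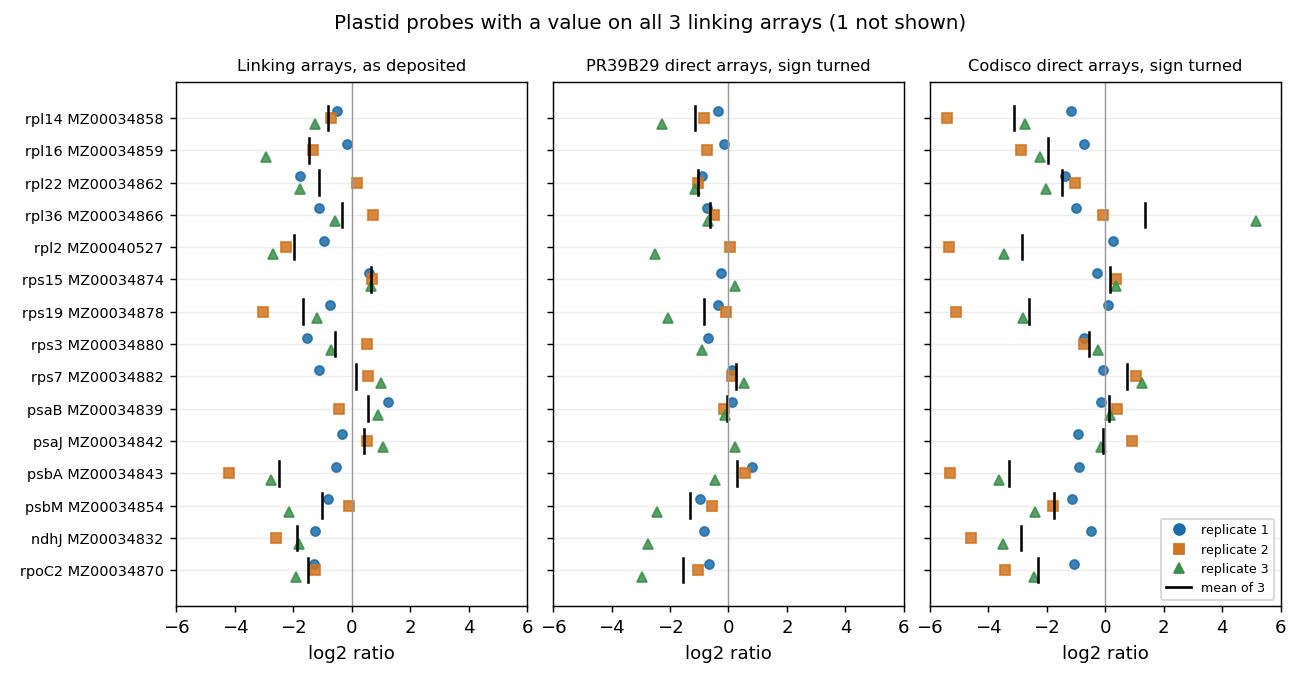
Plastid probes with a value on all 3 linking arrays (15 of the 16) are shown by replicate, with the log2 ratio on the x axis, as deposited on the linking arrays and turned on the direct arrays of PR39B29 and Codisco; bars mark the mean where all 3 replicates have a value. Most linking values lie below 0, and the Codisco values of replicate 2 lie beyond −5 for rpl14, rpl2, rps19 and psbA.

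To separate the varieties from the temperatures, the PR39B29 direct ratio of the same replicate was taken away from the linking ratio, which leaves PR39B29 control against Codisco control in title order. Of 2891 genes tested none was called by limma (0%), 150 had an unadjusted p under 0.05 and the smallest adjusted p was 0.831. On simulated data this test recovered 12% of changes of 4 and 66% of changes of 8 on the log2 scale. The absence of calls therefore does not show that the varieties were alike. By sign 379 genes (13.1%) were above 0 in all 3 replicates and 527 (18.2%) below, while among all 13891 genes with the values the shares were 15.1% and 14.6%. Without replicate 2, whose direct array resembled another one, 3523 genes could be tested and none was called either. Without replicate 3 7 of 3285 genes were called (0.213%), 1 above 0 and 6 below. In the fit of 24 arrays 8 of 1705 genes (0.469%) were called, 4 on each side (0.235%). Without replicate 2 that fit called none of 2095 genes (215 at an unadjusted p under 0.05), and the 8 genes kept their sign there with adjusted p from 0.101 to 0.448. MZ00025696 had the most even values, with differences of 3.83, 3.79 and 3.14 between the varieties in the control (fit 3.35 ± 0.67 SE, adjusted p = 0.0325). Its linking M-values were 3.04, 3.11 and 1.88, and its turned direct ratios were small and of the other sign, −0.79, −0.68 and −1.26 in PR39B29. MZ00014094 (3.55, 3.45 and 7.48) and MZ00016056 (2.47, 4.88 and 3.24) were on the same side. Both had turned direct ratios between −0.51 and −0.09 and between −0.48 and 1.62 in PR39B29. MZ00024700 (2.79, 1.67 and 4.36) was the fourth on that side. MZ00023771 was the most even of the genes below 0, with differences of −2.997, −2.03 and −3.55 beside linking M-values of −3.30, −3.12 and −4.27. MZ00024348 (−2.43, −4.65 and −3.70), MZ00038994 (−1.20, −2.26 and −6.98) and MZ00041307 (−1.32, −2.65 and −5.001) were the others on that side.

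Among the genes with a product name, the RNA binding protein kept nearly its whole linking ratio in this comparison (−3.20, −2.49 and −5.30), as did the RelA homologue (−1.88, −4.43 and −5.93) and the putative peroxidase MZ00004711 (−1.93, −5.54 and −5.40). The study nevertheless lists these genes as lowered by cold in PR39B29. MtN21 was of one sign (−1.002, −1.98 and −1.51). NAC1 kept 2.28, 1.13 and 2.72 and the unknown protein MZ00041708 kept 1.07, 1.45 and 2.08. For the proteases the means were 1.95 ± 1.54 for the metacaspase, 1.07 ± 1.21 for the legumain-like protease, 0.85 ± 0.72 for C13 endopeptidase NP1 and 0.61 ± 0.43 for the aspartic proteinase (SD, n = 3). The water stress inducible protein MZ00041500 had 0.41 ± 0.63. Their adjusted p lay between 0.83 and 0.90, so these differences did not pass limma's test. The ratios of several of these genes were different in the cold, PR39B29 cold against Codisco cold. There MtN21 had the opposite sign in every replicate (1.13, 1.78 and 1.46), and the putative peroxidase MZ00004711 (−0.23, 2.84 and −1.98), NAC1 (2.02, −1.02 and 1.72) and the unknown protein MZ00041708 (−0.05, −4.36 and 0.68) had no single sign. The RNA binding protein had −3.55 and −3.63 and the RelA homologue −3.16 and −4.91 in replicates 2 and 3, without a value in replicate 1. Neither difference was called for any of them, and the change between temperatures was not tested. In the control comparison the plastid gene psbA had −1.36, −4.77 and −2.31, while rpl14 (−0.15, 0.10 and 1.00) and psbM (0.16, 0.47 and 0.29) were near 0.

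Taking away the Codisco direct ratio instead leaves PR39B29 cold against Codisco cold. Of 3341 genes none was called by limma (0%), 242 had an unadjusted p under 0.05, and the smallest adjusted p was 0.176. On simulated data this test recovered 18% of changes of 4 and 62% of changes of 8 on the log2 scale. By sign 905 genes (27.1%) were above 0 in all 3 replicates and 344 (10.3%) below. The fit of 24 arrays called none of 1705 genes (184 at an unadjusted p under 0.05). The count depended on replicate 3, without which 58 of 4379 genes (1.32%) were called, 54 above 0 and 4 below. In that replicate the Codisco direct array had values on 99.8% of the blank spots, which carry no probe. MZ00052473 and MZ00026632 led this comparison also, with 6.42, 6.51 and 7.57 and with 4.25, 6.48 and 7.96. The leading genes on the other side were MZ00036538 (−2.96, −4.28 and −2.38) and MZ00024828 (−1.71, −3.74 and −4.04). MZ00020228 (−1.80, −3.06 and −4.54) followed them and was also below 0 in the control comparison, at −2.55, −3.17 and −2.70. MZ00023509 had −1.23, −3.83 and −5.92 in the cold and −1.89, −3.18 and −6.39 in the control. MZ00026213 was above 0 in both, with 2.98, 3.72 and 4.77 in the cold and 3.20, 2.23 and 3.63 in the control. The 2 comparisons share the linking array, so that like values in both are built in where the direct ratios are small. The turned direct ratios of PR39B29 for these 3 genes lay between −0.57 and 1.18. None of them was called in either comparison.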

How the data were processed

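Total root RNA was hybridised in pairs to 24 spotted oligonucleotide arrays in 3 loops. The authors subtracted background by limma's minimum method in CARMAweb, applied a loess per print tip within arrays and a scaling between them, left out bad spots and deposited the log2 ratio of the channels (M-value) for each of 46128 spots. Tool versions were not stated in the sources used here. A further 96 per-slide columns could not be tied to samples by name and were not used, so no filter on dim spots was possible.

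Spots of 43536 maize probes were averaged to 43393 genes. Of 42364 genes with 2 or more values, the 40% that varied most across the 24 arrays (16945) entered the tests with lmFit and eBayes of limma (version 3.58.1, under R 4.3.3), with Benjamini-Hochberg adjustment and a threshold of 0.05. The variety differences add the deposited direct M-value of the same replicate. Whether equal replicate numbers pair the arrays was checked. The deviations of linking and turned PR39B29 direct arrays from their means correlated at 0.47, −0.45 and 0.19 in replicates 1, 2 and 3, and for Codisco at 0.68, 0.30 and 0.03, so the pairing rests on the loop design. On simulated data (4111 genes, 50 per size) the linking test recovered 0% of changes of 4 and 68% of changes of 8 on the log2 scale, and the fit of 24 arrays (1705 genes) 42% of changes of 2 and 100% of changes of 4. The simulated errors were independent between arrays, unlike those of arrays that share an RNA.

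Named genes were members of product lists from the study's tables, of plastid lists by probe name, and in each comparison the 5 genes with the smallest p and one sign per direction, since fewer than 10 were called. Genes called or leading in the fit of 24 arrays were added after their values were seen. Members and lists were chosen with earlier results of these data known. Probe names of 66 of the 67 plastid probes matched a plastid gene symbol in the RefSeq genes, and 5 names also a mitochondrial one. The values of 1 plastid probe are not reported here. The labels call the replicates biological, and with 3 arrays per comparison their number limits the precision.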

Additional observations from a re-analysis of the deposited data

Results flagged for a closer look

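Blank spots, which carry no probe and entered no comparison, had values on the direct arrays used beside the linking arrays. They had one on 25.5% of the 1972 blank spots of the Codisco direct array of replicate 2 and on 99.8% of those of replicate 3. On the 3 linking arrays the share was 5.48%, 6.09% and 1.67%, and on the PR39B29 direct arrays 0.659%, 1.22% and 7.71%. The values of the Codisco arrays of replicates 2 and 3 enter the comparison of PR39B29 cold with Codisco cold and the Codisco ratios given beside single genes, and the part of spots without RNA in those values was not tested.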

How the results depend on the processing

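The count of 0 called genes on the linking arrays became 24 with M-values beyond 16 left out, 84 with robust moderation, 742 in the fit of 24 arrays and 732 with a dye term there, and 838 in the fit of the 16 arrays of replicates 1 and 3. It was 140 in a fit of the 12 linking arrays without the replicate block and 330 with the replicate block, of 2037 genes. The control comparison gave 8 in both fits of 24 arrays and 154 with the dye label reading of the direct arrays, and the cold comparison 1 with arrays centred and scaled and 109 with the dye label reading. The cause of these changes was not tested. Leaving out 1 replicate in turn gave between 0 and 1 genes on the linking arrays, 0 and 7 in the control and 0 and 58 in the cold, the highest always without replicate 3. All other settings gave 0, including no replicate block in the control and cold comparisons, no variance filter, M-values of 0 left out, every sign turned, and the fit of replicates 1 and 3 in the control and cold comparisons. These last 3 settings were chosen after seeing the data. Turning every sign cannot change a two-sided test against 0, so its count was fixed in advance. Of the values of named genes 840 kept their sign and their side of the threshold under other settings, 124 newly passed it and 11 changed sign; without 1 replicate these numbers were 256, 4 and 7. In the control comparison hsp22 (MZ00029223) became −4.78 and psbM (MZ00034854) −2.34 with the dye label reading, psbM became −0.68 in the fits of 24 arrays and −0.37 in that of replicates 1 and 3, and with arrays centred and scaled MZ00041334 became −0.38, MZ00042906 −0.027 and MZ00043603 −0.37. In the cold comparison MZ00036538 became 0.68 and MZ00041993 2.35 with the dye label reading. The linking ratio of MZ00026299 became 0.058 in the fit of replicates 1 and 3. Linking ratios that changed sign without 1 replicate ranged from −6.38 to 2.34 for PR-1 (MZ00004486), from −0.60 to 3.26 for PEPCK (MZ00013532), from −0.66 to 0.031 for MZ00017067, from −0.78 to 0.24 for MZ00026299, from −0.85 to 0.075 for rpl36 (MZ00034866) and from −0.079 to 0.40 for MZ00049724. The rank correlation between linking arrays over the more variable genes was 0.02, 0.43 and 0.34. The share of spots with a value limits what was tested, since 5882 genes had none on any linking array.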
